A study of Brachypodium distachyon with 12 samples.

Results

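Phenylalanine ammonia-lyase (PAL) removes ammonia from phenylalanine to give cinnamate, the first committed step of the phenylpropanoid pathway. In grasses some members of the family also accept tyrosine, which leads to coumarate directly. The pathway feeds lignin, the polymer that stiffens xylem walls, as well as wall-bound hydroxycinnamates, flavonoids and defence compounds, so PAL genes are known from lignifying vascular tissue and from stressed or wounded tissue alike. The 8 members described here were taken by locus, from the 34310 transcripts of the *Brachypodium distachyon* count tables, as Bradi3g47110, Bradi3g47120, Bradi3g48840, Bradi3g49250, Bradi3g49260, Bradi3g49270, Bradi3g49280 and Bradi5g15830. Each locus had 1 transcript in the tables, of 2139 to 2657 bases.

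The locus numbers place 7 of the members on chromosome 3 and 1, Bradi5g15830, on chromosome 5. Bradi3g47110 and Bradi3g47120 stood in adjacent rows of the tables, which follow locus order. Bradi3g49260 and Bradi3g49270 were also adjacent, and Bradi3g49250 and Bradi3g49280 each stood 2 rows from the nearest member, so these 4 form another cluster. The reference annotation at hand did not use these locus names, so coordinates, protein sequences and promoters were not analysed here.

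The libraries came from laser capture microdissection (LCM) of the shoot apex of wild type Bd21-3 plants, an inbred line, all grown in soil without treatment and labelled 19 days old. Vascular bundles (VBs) were collected in 3 types. VB type 1 had no visible protoxylem, the first xylem to form. VB type 2 had 1 to 2 protoxylem cells and VB type 3 had 3 to 4 by the labels. Parenchyma from the centre of the stem was the control tissue. Each group had 3 replicates, 12 libraries in all, and each replicate pooled microdissected pieces from a small number of plants. All libraries started from 500 pg of RNA amplified as cDNA, and the labels give meristem as the tissue of every library. The study's methods call the 3 biological replicates, whereas the series record speaks of 1 biological replicate, so p-values and SDs below measure the spread between these 3 captures per group, which may be technical.

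Depth was 12888132 to 27218311 read pairs counted per library. Levels are given in CPM, the usual counts-per-million unit, computed from read pairs and library totals scaled by trimmed mean of M-values (TMM) factors, and 3 pairs, taken as the detection limit, were worth 0.0723 to 0.166 CPM in 11 libraries. In parenchyma replicate 3 a single transcript took 86.3% of all pairs, only 1768043 pairs were left for the rest, and 3 pairs were worth 1.38 CPM. The same transcript took 26.1% to 54.2% of pairs in the VB libraries, which left 9080187 to 13886473 pairs for the rest. In parenchyma replicates 1 and 2 it took 15.1% and 21.0%, which left 23109703 and 18609862 pairs. These limits cover counting error only. The vascular markers PIN1a (an auxin efflux carrier), TMO6 (in Arabidopsis a transcription factor of vascular tissue) and PXY (in Arabidopsis a receptor kinase of the cambium) summed to 107 to 224 CPM in the 9 VB libraries, against 7.36 to 43.2 CPM in the 3 parenchyma libraries. The 4 xylem and secondary wall markers summed to 160 to 1024 CPM in VBs, against 1.45 to 19.4 CPM in parenchyma, so both sums set the VB libraries apart. The study had reported PIN1a, TMO6, PXY and the xylem marker XCP1 as higher in VBs from these same libraries, so this separation is not independent evidence. The sum of 14 genes for light-harvesting proteins and the small subunit of Rubisco, which the study had listed from these same libraries, was lower in VBs, at 913 to 2729 CPM against 3852 to 12976 CPM in parenchyma.

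All 8 members were detected, and the levels of each overlapped between VBs and parenchyma. The summed level of the family was 6.79, 338 and 772 CPM in VB type 1 replicates 1, 2 and 3. It was 19.7, 352 and 999.8 CPM in VB type 2, 32.9, 225 and 374 CPM in VB type 3, and 106, 195 and 101 CPM in parenchyma. Replicates 2 and 3 of every VB type were above all parenchyma libraries, whereas replicate 1 of every VB type was below all of them. The groups therefore overlapped for the sum, and they overlapped for each member taken alone. The share of all transcripts that overlap in this way was not counted, so the overlap is a description and not a trait of the family.

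Bradi3g49260 was the most abundant member. It had 4.81, 227 and 287 CPM in VB type 1, 16.2, 144 and 445 CPM in VB type 2, and 18.3, 66.2 and 174 CPM in VB type 3, against 25.8, 44.5 and 45.5 CPM in parenchyma. It was the only member at 1 CPM or more in all 9 VB libraries. Replicates 2 and 3 of each VB type exceeded the highest parenchyma library, and replicate 1 of each was under the lowest.

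Its neighbour Bradi3g49250 was absent or nearly so in some VB libraries and abundant in others. It had 0.135, 54.1 and 188 CPM in VB type 1, 0.658, 108 and 120 CPM in VB type 2, and 0, 97.4 and 50.7 CPM in VB type 3, against 15.1, 22.2 and 2.30 CPM in parenchyma. The 3 VB libraries numbered 1 held 3, 16 and 0 pairs of this transcript, at depths where the 6 others held 914 to 4652 pairs. In VB type 3 replicate 1 the count of 0 allows up to 0.165 CPM.

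Bradi3g49280, the last of the cluster, separated replicates 2 and 3 as well. It had 0.990, 8.997 and 105 CPM in VB type 1, 0.370, 7.65 and 101 CPM in VB type 2, and 1.21, 6.83 and 51.3 CPM in VB type 3, against 17.0, 27.1 and 7.82 CPM in parenchyma. Within each VB type the order of the 3 libraries was the same, and only the libraries numbered 3 were above all parenchyma libraries.

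Bradi5g15830, the member on the other chromosome, was the most abundant member in parenchyma. It had 0.810, 40.4 and 160 CPM in VB type 1, 1.48, 78.8 and 150 CPM in VB type 2, and 13.1, 53.0 and 81.4 CPM in VB type 3, against 36.4, 73.5 and 45.5 CPM in parenchyma. The replicate 1 libraries of the VB types were again the lowest of their groups and under all parenchyma libraries.

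The other 4 members were near or under the detection limit in several libraries. Bradi3g49270 had 0.045, 0.891 and 8.13 CPM in VB type 1, 0.041, 2.19 and 46.5 CPM in VB type 2, and 0.055, 0.078 and 1.61 CPM in VB type 3, against 9.71, 8.71 and 0 CPM in parenchyma. Bradi3g47110 had 0, 0.424 and 3.97 CPM in VB type 1, 0.041, 8.92 and 58.1 CPM in VB type 2, and 0.055, 0.156 and 2.72 CPM in VB type 3, against 0.699, 7.64 and 0 CPM in parenchyma. For both, VB type 2 replicate 3 was the highest library, and parenchyma replicate 3, the shallow library, had no pair, which there allows up to 1.38 CPM.

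Bradi3g48840, which the study's annotation names PAL1, had 0, 5.52 and 18.4 CPM in VB type 1, 0.946, 0.049 and 56.1 CPM in VB type 2, and 0, 1.17 and 12.5 CPM in VB type 3, against 0.361, 10.5 and 0 CPM in parenchyma. Bradi3g47120 was the least abundant member, with 0, 0.085 and 0.202 CPM in VB type 1, 0, 2.78 and 23.6 CPM in VB type 2, and 0.165, 0.156 and 0.277 CPM in VB type 3, against 0.891, 0.302 and 0 CPM in parenchyma. It passed 1 CPM in only 2 of the 9 VB libraries and in no parenchyma library. VB type 2 replicate 3 was the highest library for these members too.

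**Figure D1:**
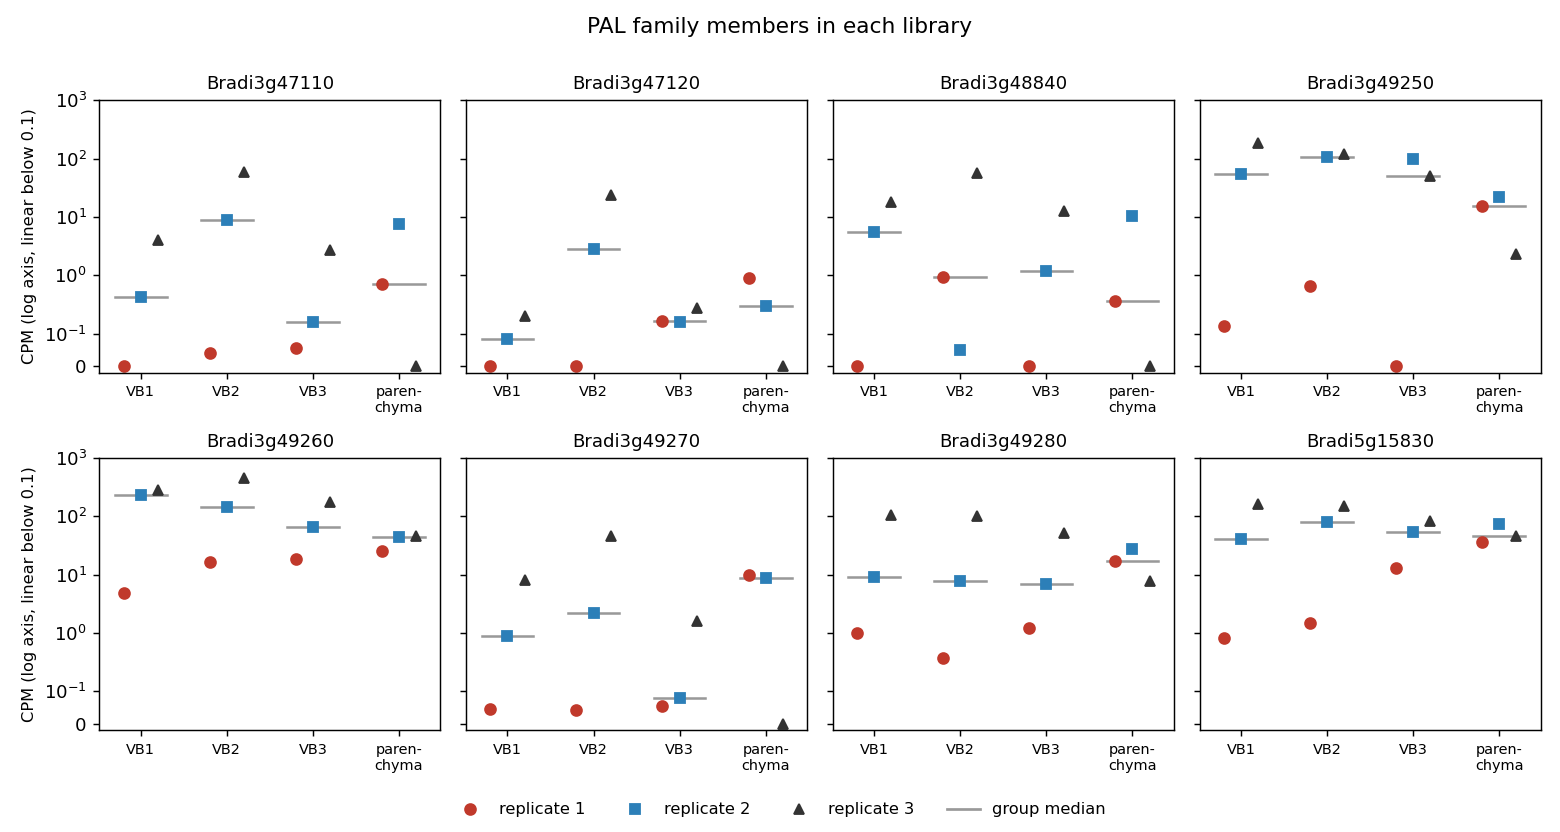
Level of each of the 8 PAL members in the 12 libraries, as CPM on a log axis that is linear below 0.1, with VB types 1 to 3 left of parenchyma, 1 symbol per replicate number and a grey line at the group median. The red circles of the VB types, replicate 1, lie below the other VB symbols for 6 members, for example at 0.135, 0.658 and 0 CPM for Bradi3g49250, but not for Bradi3g48840 and Bradi3g47120. For Bradi3g49270 this order rests on counts under the detection limit.

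The comparison of each VB type with parenchyma asks which genes mark a nascent bundle. With edgeR's quasi-likelihood test and a Benjamini-Hochberg threshold of 0.05, no member passed in VB type 1 (0 of 7 tested), in VB type 2 (0 of 8), in VB type 3 (0 of 7) or in all VBs together (0 of 7). Over all transcripts, 0% passed in VB type 1 (0 of 17078), 0.12% in VB type 2 (20 of 16733), 0.883% in VB type 3 (145 of 16427) and 5.02% in all VBs (839 of 16706), so a count of 0 among so few members is close to the background. At an unadjusted p under 0.05 the members counted 0, 1, 0 and 0 in that order, where 10.9%, 9.84%, 12.6% and 18.6% of all transcripts did. The likelihood ratio test of edgeR called 0 members in all 4 comparisons, of 653, 556, 702 and 1676 transcripts called, and DESeq2 called 0 members of 807, 750, 929 and 1829.

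The fold changes were large in places and so were their errors. Bradi3g49260 had a log2 fold change of 2.40 (SE 0.91, adjusted p = 0.379 by edgeR) in VB type 2 over parenchyma, the smallest adjusted p of any member in that comparison. In all VBs over parenchyma it had 1.91 (SE 1.06, adjusted p = 0.373 by edgeR). Bradi3g49250 had 2.30 (SE 1.74, adjusted p = 0.540 by edgeR) in all VBs, and Bradi5g15830 had 0.29 (SE 1.09, adjusted p = 0.929 by edgeR). At the other end, Bradi3g49270 had -1.04 (SE 1.50, adjusted p = 0.782 by edgeR) in all VBs and -3.41 (SE 1.90, adjusted p = 0.524 by edgeR) in VB type 3. The median log2 fold change was 0.78 over the 7 members tested in all VBs, beside 0.01 over all transcripts tested. A direction could not be given for the family, since the sign in all VBs turned for 4 of the 7 members tested when 1 library was left out. It did so for Bradi3g47110 without parenchyma replicate 3 (-0.36), for Bradi3g48840 without VB type 2 replicate 3 (-0.50), and for Bradi3g49280 and Bradi5g15830 without VB type 1 replicate 3 (-0.19 and -0.28) or without VB type 2 replicate 3 (-0.27 and -0.02). Fewer cells of a type and less RNA per cell cannot be told apart in such bulk samples.

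**Figure D2:**
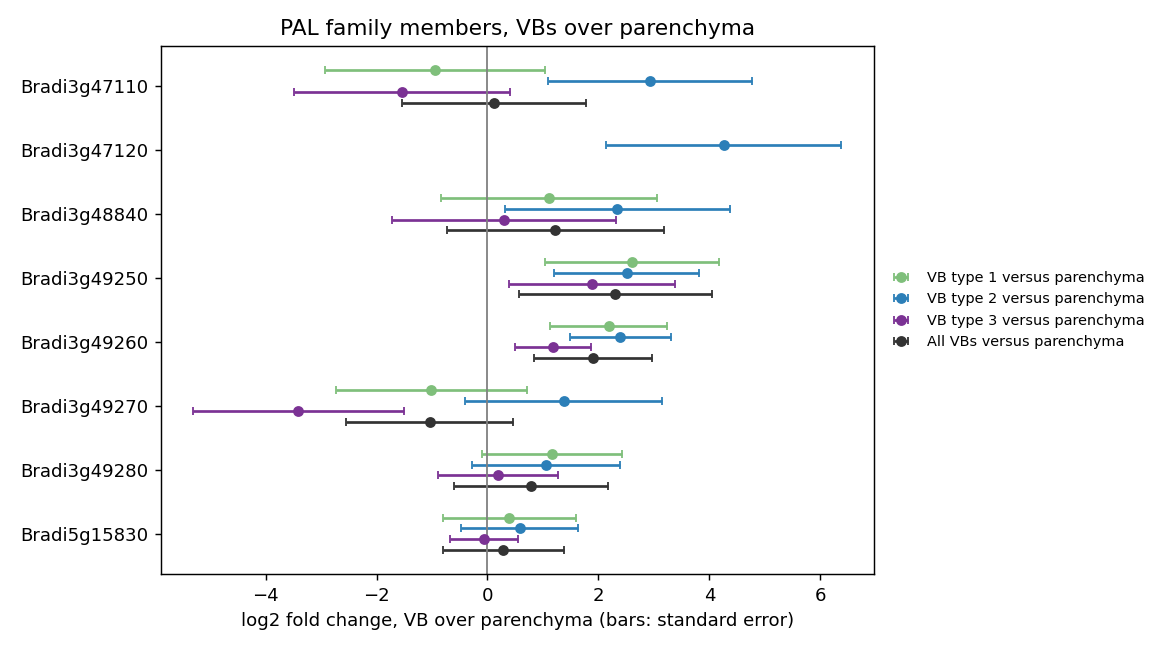
Log2 fold change of each PAL member in VB type 1, 2 and 3 and in all VBs over parenchyma, for the members that passed the filter on low counts. Points carry standard error bars derived from edgeR's fold change and F statistic. The bars are wide, such as 2.40 with an SE of 0.91 for Bradi3g49260 in VB type 2, and no value passed the test.

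The comparisons between VB types ask whether the family changes as protoxylem appears. No member passed in VB type 2 over VB type 1 (0 of 7 tested), in VB type 3 over VB type 1 (0 of 6) or in VB type 3 over VB type 2 (0 of 7) with edgeR's quasi-likelihood test. Neither did any other transcript, with 0% of 17703, 0% of 17448 and 0% of 17111 called. At an unadjusted p under 0.05 the members counted 0, 0 and 2 in that order, where 2.04%, 2.69% and 2.44% of all transcripts did. The likelihood ratio test called 0 members of 19, 24 and 4 transcripts called, and DESeq2 called 0 members of 16, 21 and 14.

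The 2 members with an unadjusted p under 0.05 were Bradi3g47110 and Bradi3g49270 in VB type 3 over VB type 2. Their log2 fold changes were -4.51 (SE 1.99) and -4.80 (SE 2.11), both with an adjusted p of 1.00 by edgeR. VB type 2 replicate 3 was highest, at 58.1 and 46.5 CPM, and the other libraries of VB types 2 and 3 were at or under 8.92 and 2.19 CPM. The median log2 fold change over the members was 0.24, -0.91 and -1.22 in the 3 comparisons, beside 0.01, -0.03 and -0.0050 over all transcripts tested.

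Within the VB libraries the members parted by the replicate number of the labels rather than by VB type. The summed level of the family was 6.79 to 32.9 CPM in the 3 libraries numbered 1, 225 to 352 CPM in those numbered 2, and 374 to 999.8 CPM in those numbered 3. For 6 of the 8 members all 3 libraries numbered 1 were below the 6 other VB libraries. Among the 6 members that passed the filter of the fit below, 5 showed that order, as did 5.51% of all 16685 transcripts that passed it. The exceptions were Bradi3g48840, at 0.946 CPM in VB type 2 replicate 1 and 0.049 CPM in VB type 2 replicate 2, and Bradi3g47120, at 0.165 CPM in VB type 3 replicate 1 and 0.085 CPM in VB type 1 replicate 2. For Bradi3g49270 the order rests on 1 pair in each VB library numbered 1 against 2 pairs in VB type 3 replicate 2. These counts are under the detection limit of 3 pairs, so for this member the order cannot be told from a tie. The labels do not say what libraries of the same number share, and over all transcripts the same-numbered libraries of 2 VB types deviated together for number 1 (r of deviations from the group means 0.23 to 0.47) and number 3 (0.22 to 0.30), but not for number 2 (-0.049 to 0.016), nor with parenchyma (-0.045 to 0.069).

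The number was therefore put to a test after these values had been seen, as a term beside VB type in an edgeR quasi-likelihood fit of the 9 VB libraries. Of 16685 transcripts, 0.863% passed for the replicate number, 144 in all, and 0.713% passed with their lowest level in libraries numbered 1. The members that passed were Bradi3g49280 (adjusted p = 0.00225 by edgeR), Bradi3g49250 (0.00777), Bradi3g49260 (0.0308) and Bradi3g49270 (0.0361), which are the 4 neighbours of the cluster on chromosome 3. Bradi5g15830 (0.0722) and Bradi3g48840 (0.165) did not pass, and Bradi3g47110 and Bradi3g47120 were not tested, having too few libraries at 1 CPM. The split does not set the cluster apart, since all 6 members tested passed by the likelihood ratio test. In the same fit the VB type was passed by 0 members, and by 0 of all transcripts, with 1 member and 563 transcripts at an unadjusted p under 0.05. Since libraries numbered 1 held so little of these transcripts, several members reached the filter only through the libraries numbered 2 and 3, and the count of members is given as a description.

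Bradi3g49250 differed most. Its libraries numbered 2 exceeded those numbered 1 by 8.54 on the log2 scale, and those numbered 3 exceeded them by 8.87. For Bradi3g49280 the differences were 3.21 and 6.66, for Bradi3g49260 3.40 and 4.41, and for Bradi3g49270 3.76 and 7.67. Outside the cluster they were 4.01 and 5.35 for Bradi5g15830 and 3.85 and 7.01 for Bradi3g48840, in both cases larger than for Bradi3g49260. Over all transcripts tested the median differences were -0.01 and -0.10. The count of members that passed was 2, Bradi3g49280 and Bradi3g49250, without VB type 1 replicate 3, VB type 2 replicate 1, 2 or 3, or VB type 3 replicate 3. With 1 VB library left out, Bradi3g49270 passed only without VB type 3 replicate 1 (adjusted p = 0.0154 by edgeR). Its adjusted p was 0.0546 to 0.385 by edgeR when any other VB library was left out. Because the term was chosen for the pattern it tests, neither count is independent evidence of it.

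Other lists moved with the replicate number to different degrees, and their part in the members' levels was not tested. The 8 loci annotated to later steps of the pathway summed to 59.6 to 122 CPM in the VB libraries numbered 1, 141 to 288 CPM in those numbered 2 and 190 to 307 CPM in those numbered 3, so number 1 stood apart there too, and 0 of the 3 loci tested passed. The 4 xylem markers summed to 160 to 250 CPM in the VB libraries numbered 1, 604 to 1024 CPM in those numbered 2 and 706 to 1004 CPM in those numbered 3. Of these markers XCP1, in Arabidopsis a protease of differentiating xylem, passed for the replicate number (adjusted p = 0.0294 by edgeR), with log2 differences of 1.98 and 1.98 for libraries numbered 2 and 3 over those numbered 1. It did not pass without VB type 1 replicate 3, VB type 2 replicate 1 or 2, or any 1 library of VB type 3 (adjusted p = 0.0607 to 0.214 by edgeR). The sum of the xylem markers was mostly XCP1, which averaged 608 of 626 CPM over the VB libraries. The other xylem markers, Bradi3g28350, Bradi4g30540 and Bradi2g49912, did not pass (adjusted p = 0.251 to 0.857 by edgeR). Their log2 differences were 1.75 to 2.91. The sum of PIN1a, TMO6 and PXY was 128 to 164, 117 to 182 and 107 to 224 CPM by number, and 0 of the 3 passed. The green-tissue sum was 1675 to 2729, 913 to 2646 and 1069 to 2441 CPM by number, and 0 of the 14 passed.

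**Figure D3:**
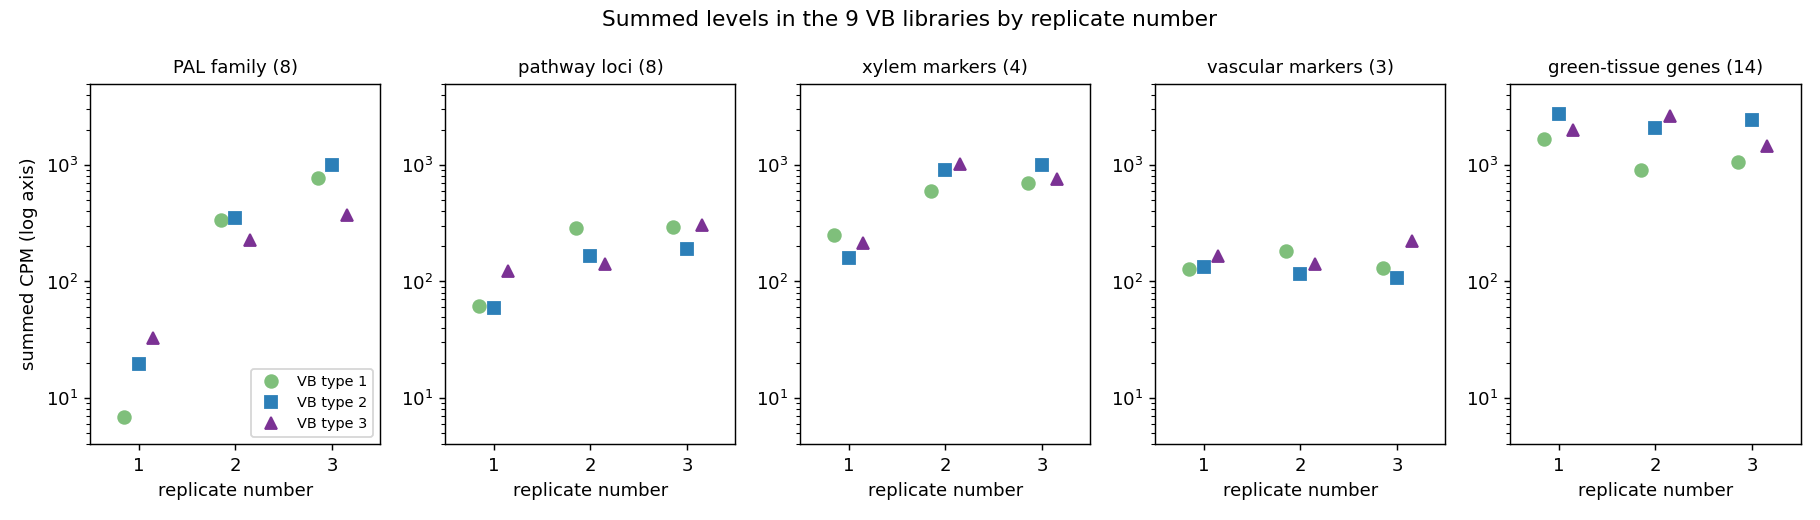
Summed CPM, on a log axis, of the 8 PAL members, 8 pathway loci, 4 xylem markers, 3 vascular markers and 14 green-tissue genes in the 9 VB libraries, by the replicate number of the labels, with 1 symbol per VB type. The family lies at 6.79 to 32.9 CPM at number 1 and at 225 CPM or more at numbers 2 and 3. The pathway loci and the xylem markers, whose sum is mostly XCP1, show a smaller gap. The ranges of the vascular markers and green-tissue genes overlap.

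Levels of different members were compared per kb of transcript. Bradi3g49260 averaged 58.6 ± 56.5 CPM per kb in VBs (SD, n = 9), followed by Bradi3g49250 at 25.9 ± 24.5, Bradi5g15830 at 25.4 ± 23.5 and Bradi3g49280 at 12.8 ± 17.7. Bradi3g48840, Bradi3g47110, Bradi3g49270 and Bradi3g47120 averaged 4.92 ± 8.56, 3.29 ± 7.52, 2.57 ± 5.89 and 1.23 ± 3.15 CPM per kb. The SDs of neighbours in that order overlapped, but they hold shifts between libraries that the members share. Compared within libraries, Bradi3g49260 exceeded Bradi5g15830 in each VB library. It exceeded Bradi3g49250 in each except VB type 3 replicate 2 (25.3 against 36.6 CPM per kb). The order was not tested. In parenchyma Bradi5g15830 led at 20.5 ± 7.66 CPM per kb (SD, n = 3), before Bradi3g49260 at 14.7 ± 4.23, Bradi3g49280 at 7.06 ± 3.94 and Bradi3g49250 at 4.97 ± 3.80. The other 4 members averaged 0.161 to 2.39 CPM per kb there. The SDs of neighbours overlapped again, although Bradi5g15830, Bradi3g49260, Bradi3g49280 and Bradi3g49250 followed this order in each parenchyma library.

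As a share of the family's summed level per kb, Bradi3g49260 made up 51.9% ± 17.3 in VBs (SD, n = 9, range 29.3% to 80.9%) and 29.98% ± 12.2 in parenchyma (SD, n = 3, range 22.1% to 44.1%). Bradi5g15830 made up 19.8% ± 9.66 in VBs and 39.4% ± 5.65 in parenchyma. Bradi3g49250 made up 15.7% ± 14.1 in VBs and 8.93% ± 6.01 in parenchyma, and Bradi3g49280 made up 7.62% ± 5.85 in VBs and 13.1% ± 4.47 in parenchyma. The ranges of the tissues overlapped for each of these 4 members. The shares also differed by replicate number. Bradi3g49250 held 15.7% to 42.4% of the family in VB libraries numbered 2, but 0% to 3.25% in those numbered 1.

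**Figure D4:**
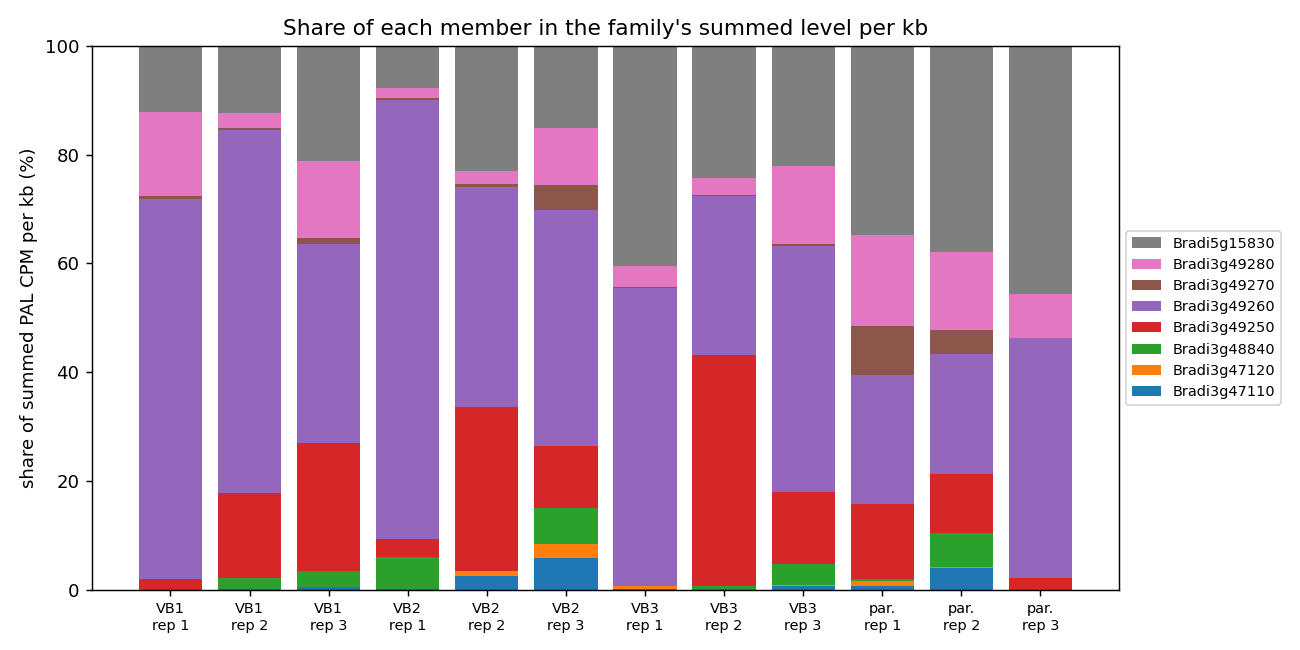
Share of each PAL member in the summed CPM per kb of the family, as stacked bars that add up to 100%, for each library, VB types left of parenchyma. Bradi3g49260 takes 29.3% to 80.9% of the bar in VB libraries, and Bradi5g15830 averages 39.4% in parenchyma.

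The members varied together across libraries. Pearson's r between log2 CPM of 2 members, over the 12 libraries, ran from 0.41 to 0.91 with a median of 0.72 over the 28 combinations, and from 0.40 to 0.96 with a median of 0.80 over the 9 VB libraries. The closest over 12 libraries were Bradi3g47110 and Bradi3g49270, at 0.91, although they sit in different clusters. The adjacent Bradi3g49260 and Bradi3g49270 had r = 0.62, and Bradi5g15830 had r = 0.88 with Bradi3g49280. The points share depth, amplification and, in the VBs, the low replicate 1 libraries.

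The 5 other transcripts whose log2 CPM followed the log2 of the family sum most closely over the 12 libraries were Bradi2g30490 (r = 0.98), Bradi2g09145 (r = 0.98), Bradi3g16530 (r = 0.97), Bradi1g34842 (r = 0.95) and Bradi2g36910 (r = 0.95), of 16699 compared. Neither the count tables nor the annotation used here names them. Bradi2g30490 had 0.180 to 1.98 CPM in VB libraries numbered 1 and 98.9 to 653 CPM in the 6 others, and Bradi3g16530 had 15.3 to 25.6 CPM and 163 to 409 CPM. All 5 were lower in each VB library numbered 1 than in each of the 6 others, as were 5.51% of the 16685 transcripts in the replicate number fit. The family sum has this order too, and the 5 were picked for following it, so their order is not a separate result.

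Further along the phenylpropanoid pathway, 8 loci carried a name in the study's annotation, and 3 of them passed the filter on low counts. None passed in a single VB type over parenchyma or between VB types with edgeR's quasi-likelihood test. In all VBs over parenchyma, 1 rose, 1 fell and 1 did not pass. Of all 16706 transcripts tested there, 5.02% passed, 208 up and 631 down. The share of all transcripts with every VB library on 1 side of parenchyma was not counted. Cinnamoyl-CoA reductase, Bradi3g36887, which makes the aldehyde precursors of lignin, rose. It had 38.5 to 234 CPM in VBs with a median of 101, against 13.6 to 32.8 CPM in parenchyma with a median of 28.5 (log2 fold change 2.26, SE 0.56, adjusted p = 0.0330 by edgeR, higher in 9 of 9 VB libraries). CAD7, Bradi4g29780, annotated as a cinnamyl alcohol dehydrogenase, the class of enzyme that reduces those aldehydes, fell. It had 9.94 to 56.9 CPM in VBs with a median of 30.1, against 84.2 to 234 CPM in parenchyma with a median of 84.6 (log2 fold change -2.06, SE 0.48, adjusted p = 0.0247 by edgeR, lower in 9 of 9). With 1 library left out, the reductase did not pass without any 1 of the parenchyma libraries, VB type 1 replicate 2, VB type 2 replicate 2 or VB type 3 replicate 3 (adjusted p = 0.0507 to 0.128 by edgeR), and CAD7 did not pass without parenchyma replicate 2 (0.198) or VB type 1 replicate 2 (0.0544). Neither passed with library totals in place of TMM (0.153 and 0.167), where the log2 fold changes were 2.47 and -2.01.

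Cinnamate-4-hydroxylase, Bradi2g31510, which acts directly on the product of PAL, had 0.659 to 83.5 CPM in VBs, against 0.602 to 11.04 CPM in parenchyma (log2 fold change 2.69, SE 1.25, adjusted p = 0.270 by edgeR). Within the VBs it had 0.659 to 8.85 CPM in the libraries numbered 1 and 13.9 to 83.5 CPM in the others, with an adjusted p of 0.0974 by edgeR for the replicate number. The 3 loci annotated as hydroxycinnamoyl transferase, O-methyltransferase 1 and cinnamyl alcohol dehydrogenase 6 stayed under 2 CPM in every library, and 3 of these 5 had no pair in any library. Several of the named loci had been listed by the study from these libraries, so their directions are not independent evidence.

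Sequence shared between tandem copies could remove reads from the counts, because reads that aligned equally well to more than 1 place were dropped. Such reads were 10.4% to 16.8% of mapped reads per library, and such pairs were 1.26% to 3.64% of the pairs parsed. Both differed between the tissues without overlap. Reads lost were 13.6% to 16.8% in VBs against 10.4% to 13.1% in parenchyma. Pairs lost went the other way, at 1.26% to 1.44% in VBs against 2.23% to 3.64% in parenchyma. The effect on the members' fold changes was not tested. The tables give these losses per library only, so the loss of each member cannot be measured. The reads counted per pair counted show only part of it, since a pair with both mates dropped leaves the ratio unchanged. Both mates of a counted pair add 2 reads and reads outside counted pairs raise the value, whereas mates dropped as multiple hits lower it.

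Over 20647 transcripts with at least 100 pairs the median was 2.46 reads per pair, and 551 of them (2.67%) were below 2. The members' pooled values ranked from the percentile 3.22 for Bradi3g48840 to 97.6 for Bradi3g47110 among those transcripts, and the other 6 lay between 28.5 and 77.2. Per library with at least 20 pairs, Bradi3g48840 had 2.03 to 2.12 reads per pair (n = 7), and its value was low in each of them. Bradi3g47120 went down to 1.81 in 1 of 3 libraries, where its count was 37 pairs. The 4 neighbours of the cluster on chromosome 3 had medians of 2.40 to 2.53. Counting single reads in place of pairs left 0 members called in each of the 7 comparisons.

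**Figure D5:**
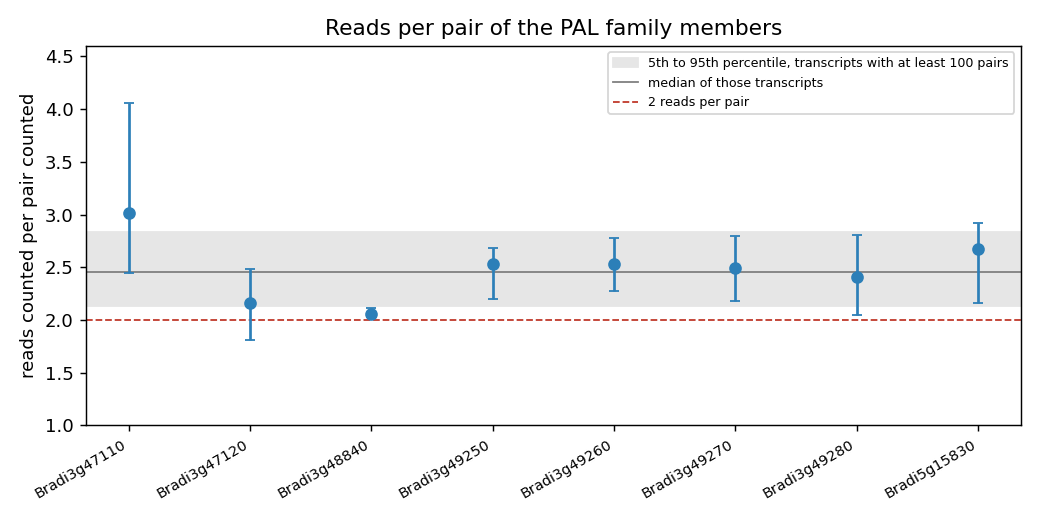
Reads counted per pair counted for each PAL member, as the median (point) and the range (bar) over libraries with at least 20 pairs of that member, with a grey band from the 5th to the 95th percentile of transcripts with at least 100 pairs, a line at their median of 2.46 and a dashed line at 2. Bradi3g48840 lies lowest, at 2.03 to 2.12, and Bradi3g47110 highest.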

How the data were processed

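After trimming (Trimmomatic) and a screen against ribosomal sequences (sortMeRNA), the authors aligned pairs to the Brachypodium transcriptome with Bowtie2 in local mode (the tool named in the submitters' processing notes). They deposited, per library, raw counts of read pairs and of reads for each transcript, made by a local script that drops reads with equally good hits elsewhere and, per the file headers, treats singletons as unmapped. The deposited read count includes the reads of counted pairs. The transcript length in bases is also from the deposited tables. The labels call the libraries unstranded and the study's methods stranded, so antisense transcripts may be included. The build and annotation version are not given in the sources used here.

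Pair counts were tested with edgeR 4.0.16 (glmQLFit, glmQLFTest) in R 4.3.3, with TMM factors, transcripts at 1 CPM or more in at least 3 of 6, 5 of 9 or 6 of 12 libraries, and Benjamini-Hochberg adjustment over all transcripts tested at 0.05. The all-VB contrast sets parenchyma against the average of the VB types. The SE of a log2 fold change is its absolute value over the square root of the F statistic of edgeR's test. CPM values use TMM factors from all 12 libraries. For correlations, log2 CPM had a prior count of 2. DESeq2 1.42.0 and edgeR's likelihood ratio test, which the authors used, were alternatives. The procedures were tested on simulated data with the same dispersion for every transcript and, in the group comparisons, no shift by replicate number. This does not show how the tests perform at the spread of these members. Depth was 12888132 to 27218311 pairs per library.

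Groups came from the labels. The members, lists and tests were chosen with earlier results of these data known. Named were all 8 members, the 5 transcripts most correlated with their sum, the pathway loci and the markers. RefSeq loci matched 0 file identifiers, so pathway and green-tissue names came from the study's annotation of its loci, in place of the RefSeq names planned, and no sequences are shown. The authors' fold changes and p-values were not used.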

Additional observations from a re-analysis of the deposited data

Results flagged for a closer look

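In 4 members, VB type 2 replicate 3 stood apart from the 8 other VB libraries by more than Dixon's 95% critical value for 9 samples (0.493). It had 58.1 CPM of Bradi3g47110, 23.6 CPM of Bradi3g47120, 56.1 CPM of Bradi3g48840 and 46.5 CPM of Bradi3g49270, where the next highest VB libraries had 8.92, 2.78, 18.4 and 8.13 CPM. The critical value assumes normally distributed values, of which about 1 in 20 groups would be marked by chance. These CPM values are skewed towards high values, so the rate of marks by chance is not known here. The 4 values come from the same library, so they are not separate events. The 4 more abundant members were not marked.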

How the results depend on the processing

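The count of PAL members called was 0 in each of the 7 comparisons under every alternative run: the likelihood ratio test, DESeq2, RLE factors, library totals, no filter or a majority filter, single-read counts, 1 fit of all 12 libraries (for all VBs, VB libraries as 1 group), the replicate block, removal of the dominant transcript and each library left out. Adding single reads to pairs was not run, because the read counts already hold the reads of counted pairs. The replicate numbers did not pair VB with parenchyma libraries (mean r of deviations 0.024, -0.00055 and -0.014). VB types of the same number correlated at a mean of 0.26, 0.16 and 0.17, but at 0.016, -0.049 and 0.011 for number 2. Not every same-numbered pair therefore deviated together. Different numbers had means of -0.13, -0.08 and -0.08. Removing the group means ties these values to the same-numbered ones with the opposite sign, so they add no evidence of pairing. The replicate block left 0 members called in each comparison.

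No member's fold change passed the threshold, so the changes of sign below concern differences within their errors. Values are log2 fold changes. With the replicate block, in VB type 1 over parenchyma Bradi3g48840, Bradi3g49280 and Bradi5g15830 had -0.27, -1.09 and -1.18. In VB type 2 over parenchyma Bradi3g49270, Bradi3g49280 and Bradi5g15830 had -1.79, -1.54 and -0.55 in the block fit. In VB type 3 over parenchyma Bradi3g48840 and Bradi3g49280 had -1.78 and -1.36 with the replicate block, -0.23 and -0.25 with library totals, and Bradi5g15830 had 0.017 with single-read counts. In all VBs Bradi3g47110, Bradi3g48840, Bradi3g49250, Bradi3g49280 and Bradi5g15830 had -2.50, -0.64, -2.28, -2.29 and -1.17 with the replicate block, Bradi3g47110 had -0.047 with library totals, and Bradi3g49270 had 0.070 with the VB libraries as 1 group. Between VB types, the replicate block gave 0.59 for Bradi3g49250 in VB type 2 over 1, 0.88 for Bradi5g15830 in VB type 3 over 1, and 0.036 and 0.35 for Bradi3g49280 and Bradi5g15830 in VB type 3 over 2. Single-read counts gave 0.046 for Bradi3g49280 in VB type 2 over 1. The cause of these changes was not tested.

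Leaving out 1 library at a time gave the following ranges where the sign turned. In VB type 1 over parenchyma they were -1.73 to 1.75 for Bradi3g49280 and -1.26 to 0.98 for Bradi5g15830. In VB type 2 over parenchyma they were -2.45 to 1.95 for Bradi3g49270, -2.09 to 1.64 for Bradi3g49280 and -0.35 to 1.16 for Bradi5g15830. In VB type 3 over parenchyma they were -0.26 to 0.91 for Bradi3g48840, -2.08 to 0.76 for Bradi3g49280 and -0.62 to 0.40 for Bradi5g15830. In all VBs they were -0.36 to 0.31 for Bradi3g47110, -0.50 to 4.99 for Bradi3g48840, -0.27 to 1.25 for Bradi3g49280 and -0.28 to 0.63 for Bradi5g15830. In VB type 2 over 1 they were -4.005 to 2.81 for Bradi3g48840, -0.67 to 1.52 for Bradi3g49250, -1.13 to 0.82 for Bradi3g49260, -1.46 to 5.12 for Bradi3g49270, -3.29 to 2.89 for Bradi3g49280 and -0.76 to 1.93 for Bradi5g15830. In VB type 3 over 1 they were -3.76 to 0.71 for Bradi3g48840, -1.71 to 0.86 for Bradi3g49250, -3.29 to 1.97 for Bradi3g49280 and -1.06 to 1.24 for Bradi5g15830. In VB type 3 over 2 they were -4.99 to 3.18 for Bradi3g48840, -2.26 to 0.11 for Bradi3g49260, -3.17 to 2.30 for Bradi3g49280 and -1.24 to 0.29 for Bradi5g15830.

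For the replicate number among VB libraries, a term chosen after seeing the data, the members called were 4 (144 transcripts in all), against 7 of 8 without a filter on low counts (558 in all), 6 by the likelihood ratio test (988), 4 with library totals (143) and 3 with single-read counts (117). With 1 VB library left out the count was 2 to 6, and 26 to 304 transcripts were called in all. All shares of the family stayed within 1 SD of their values with single-read counts, without the division by length and, for parenchyma, without replicate 3. Parenchyma replicate 3 limits what can be said of low members in that tissue, since 3 pairs there are worth 1.38 CPM.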
